A study of Mus musculus with 36 samples.

Results

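The tumors of mice given immune checkpoint blockade were compared with the tumors of mice given control IgG across all measured genes. The 6 tumor libraries belong to a series of 36 bulk RNA sequencing libraries. They come from C57BL/6 wild-type mice that carried MC38 tumors, MC38 being a colon carcinoma line of mouse origin. The ICB tumors, titled T344, T345 and T346 and called ICB replicates 1 to 3 here, came from mice given antibodies to PD1 and CTLA4 at high dosage. The IgG tumors, titled T339, T338 and T340 and called IgG replicates 1 to 3, came from mice given an IgG control. The labels name no gene deletion or transgene in either group, and the sources used here give neither the antibody dose and schedule nor the age of the mice. RNA was taken from flash-frozen tissue with TRIzol. The labels do not state that each tumor came from its own mouse, so a p-value here measures only the spread between these libraries. Of the 18760 genes in the table, 11398 reached an FPKM of 1 or more in 3 or more of the 6 tumor libraries and were tested. An FPKM counts fragments per kilobase of a gene at a common depth, and values below are listed in the order of replicates 1, 2 and 3.

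PD1 and CTLA4 are receptors that restrain T cells, PD1 mainly in tissues and CTLA4 mainly while T cells are being primed. Antibodies to them release T cells to secrete interferon-gamma and to kill tumor cells with granzymes and perforin. Interferons act through STAT proteins on target cells, which then make antiviral proteins, GTPases that attack intracellular microbes, chemokines and the machinery of antigen presentation. A tumor in bulk holds malignant cells, fibroblasts, vessels, macrophages, lymphocytes and remnants of the tissue around it, and fewer cells of a type and less RNA per cell cannot be told apart in these data.

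The libraries held 20893280 to 25512980 reads and differed among themselves within groups. IgG replicate 3 stood apart from the other tumors. The first principal component carried 45.1% of the variance and had IgG replicate 3 at one end and IgG replicates 1 and 2 at the other. Between IgG replicate 3 and the mean of the other IgG tumors, 568 genes were at least 1 apart on the log2(FPKM + 1) scale, against 60 genes between the ICB and IgG means. Apoe, a lipid carrier made by many macrophages, had 61.2, 59.4 and 120.0 FPKM in the ICB tumors, against 74.9, 73.6 and 443 FPKM in the IgG tumors. H19, an imprinted RNA of fetal tissue, had 39.4, 18.2 and 33.5 FPKM in the ICB tumors, against 20.9, 7.54 and 166 FPKM in the IgG tumors. Both genes, and the others drawn for IgG replicate 3, were chosen after their values were seen. Results below are given with and without IgG replicate 3 and ICB replicate 2, which carried muscle transcripts, where leaving them out moves the value.

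**Figure D1:**
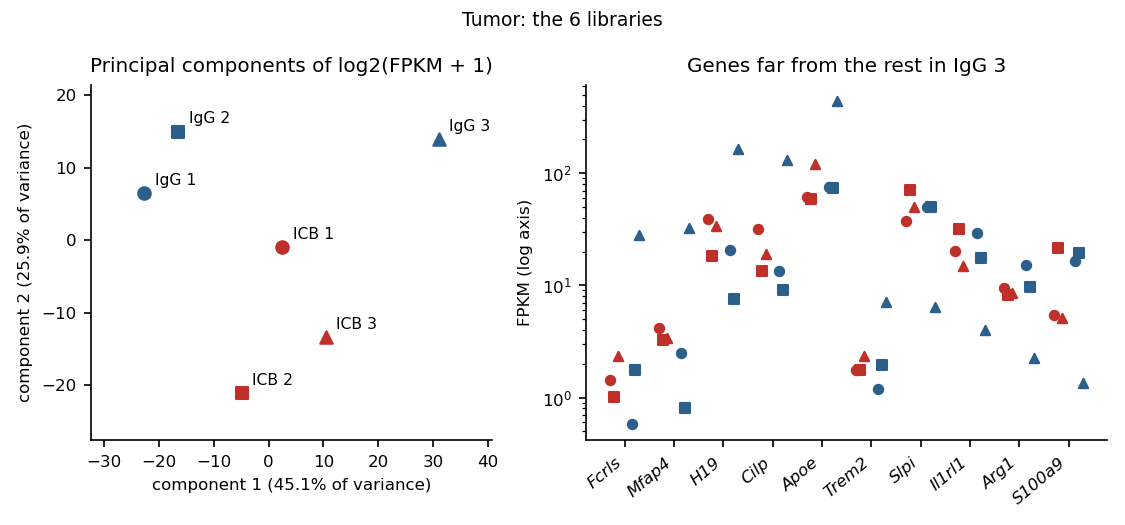
The left panel places the 6 tumor libraries on the first and second principal components of log2(FPKM + 1) over the tested genes, ICB in red and IgG in blue. The right panel shows FPKM on a log axis for 10 genes far from the rest in IgG replicate 3, with the same symbols and ICB left of IgG, and in it IgG replicate 3 is highest for Fcrls to Trem2 and lowest for Slpi to S100a9.

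No gene passed the test between ICB and IgG tumors. With limma on log2(FPKM + 1), 0 of 11398 genes (0%) had a Benjamini-Hochberg adjusted p below 0.05, the lowest adjusted p was 0.385, and 783 genes had an unadjusted p below 0.05. With limma-voom on the whole reads recovered from the FPKM values, 0 genes passed and 847 had an unadjusted p below 0.05. All 3 ICB libraries lay above all 3 IgG libraries for 644 genes (5.65%) and below them for 854 genes (7.49%), and the differences, ICB minus IgG, had a median of -0.01. Every gene difference below is therefore one that did not pass this test, and lists are described by their counts beside these shares.

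**Figure D2:**
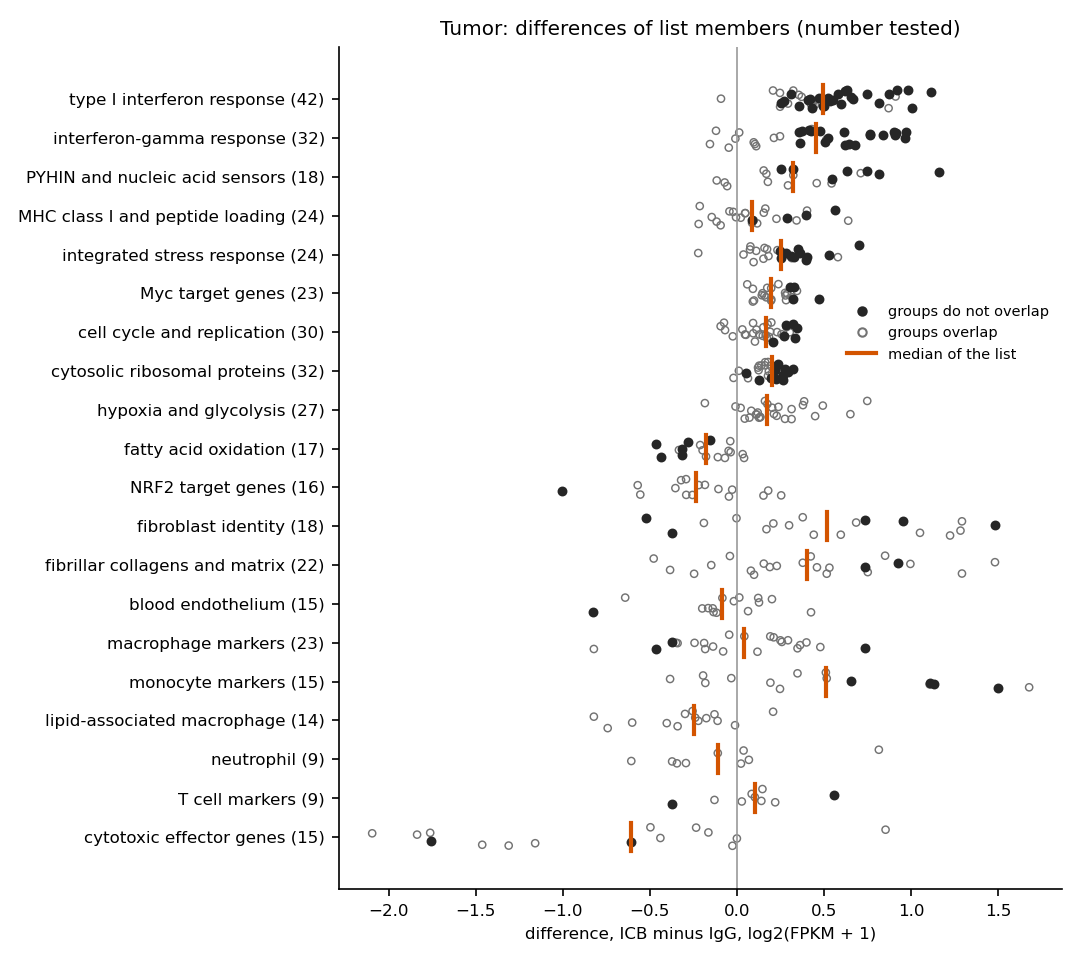
Each point is 1 tested gene of a list, placed by its difference between ICB and IgG tumors on the log2(FPKM + 1) scale, filled where the 3 libraries of 1 group all lie beyond those of the other. Orange bars mark the median of each list, which is 0.50 for the type I interferon response and -0.61 for cytotoxic effector genes.

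Genes induced by interferon-gamma were higher in the ICB tumors. Of the 32 tested genes of that list, 28 were higher and 4 lower, 20 had every ICB library above every IgG library, and the median difference was 0.45, against 5.65% and -0.01 over all tested genes. GTPases that guard against intracellular microbes led it. Gm12250 is a member of the immunity-related GTPase family. GENCODE annotates it as a processed pseudogene (GRCm38, chr11:58187739-58189012), while its RefSeq start lies upstream of that interval. Gm12250 had 34.9, 38.2 and 38.8 FPKM in the ICB tumors, against 17.2, 18.2 and 20.4 FPKM in the IgG tumors (difference 0.97 ± 0.10 SE, limma adjusted p = 0.385). In mean and SD it was 37.3 ± 2.07 FPKM in the ICB tumors and 18.6 ± 1.68 FPKM in the IgG tumors (n = 3 each). Gbp3, a guanylate-binding protein, had 34.6, 40.5 and 43.2 FPKM in the ICB tumors, against 19.1, 21.8 and 20.3 FPKM in the IgG tumors (0.92 ± 0.12 SE, limma adjusted p = 0.385). The groups did not overlap for either gene. Both were named for their small p-values, a choice that favors little spread beside the distance between groups, so their small spread adds no support.

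Other members of both GTPase families had the same order. Igtp had 45.3, 42.7 and 46.4 FPKM in the ICB tumors, against 20.8, 25.3 and 28.0 FPKM in the IgG tumors. Tgtp2, whose reads may be shared with its near-identical neighbor Tgtp1, had 16.3, 12.6 and 15.4 FPKM in the ICB tumors, against 6.52, 8.40 and 7.31 FPKM in the IgG tumors. Among the chemokines that draw T cells through CXCR3, Cxcl10 had 77.1, 109 and 65.1 FPKM in the ICB tumors, against 34.5, 42.2 and 48.0 FPKM in the IgG tumors, and the groups were apart. Cxcl9 had 11.8, 10.7 and 14.6 FPKM in the ICB tumors, against 5.71, 9.78 and 3.86 FPKM in the IgG tumors, with IgG replicate 2 just under the lowest ICB library. The median of the interferon-gamma list was 0.46 without IgG replicate 3 and 0.50 without ICB replicate 2.

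The type I interferon response had the same direction over more members, and which interferon, if any, lay behind either list was not tested. Of its 42 tested genes 41 were higher and 1, Ifi27, was lower, 28 had every ICB library above every IgG library, and the median was 0.50. Stat2, a transcription factor of type I interferon signaling, had 25.6, 25.1 and 24.01 FPKM in the ICB tumors, against 16.1, 19.2 and 17.8 FPKM in the IgG tumors (0.47 ± 0.10 SE). Isg15, a ubiquitin-like protein attached to other proteins in antiviral defense and chosen after its values were seen, had 148, 181 and 134 FPKM in the ICB tumors, against 47.7, 91.2 and 103 FPKM in the IgG tumors. Ifit1, which binds viral RNA caps, had 27.8, 34.2 and 25.8 FPKM in the ICB tumors, against 11.7, 14.4 and 19.5 FPKM in the IgG tumors (0.92 ± 0.20 SE). For many members IgG replicate 1 was the lowest library and IgG replicate 3 the nearest to ICB, as its mean level over the list shows: 4.34, 4.52 and 4.26 in the ICB tumors, against 3.51, 3.89 and 4.13 in the IgG tumors on the log2(FPKM + 1) scale. Leaving out IgG replicate 3 gave a median of 0.64 and leaving out ICB replicate 2 one of 0.41. It was 0.33 when IgG replicate 1 was left out, the only library that lowered it by over 1.5 times.

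Sensors of cytosolic DNA and RNA, many of them induced by interferon, had the same direction. Of 18 tested genes 15 were higher, 7 were apart upward, and the median was 0.32. Ifi206, of the PYHIN family of DNA-binding proteins, had 7.15, 10.5 and 8.80 FPKM in the ICB tumors, against 2.52, 3.29 and 4.45 FPKM in the IgG tumors (1.16 ± 0.19 SE). Zbp1, a sensor of left-handed nucleic acids that is in the type I list too, had 37.1, 46.9 and 42.0 FPKM in the ICB tumors, against 18.7, 31.4 and 25.1 FPKM in the IgG tumors. PYHIN genes are close copies of each other, so reads may be split among them.

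The promoters of 4 of these genes are shown because they hold letters through which interferon signals can be read. The interferon-stimulated response element was searched as 2 copies of GAAA with 2 bases of any kind between them, and the gamma-activated site as TTCNNNGAA. Capitals mark matches on either strand in RefSeq promoter windows of GRCm38.p6, which run from 250 bases before to 50 after the RefSeq start of the gene, written in the direction of the gene. The RefSeq start of Gm12250 lies upstream of the GENCODE interval given above, so its window is not next to that interval. Matches that share letters are joined in 1 run of capitals.
Tgtp2, chr11:49064163-49064462, minus strand: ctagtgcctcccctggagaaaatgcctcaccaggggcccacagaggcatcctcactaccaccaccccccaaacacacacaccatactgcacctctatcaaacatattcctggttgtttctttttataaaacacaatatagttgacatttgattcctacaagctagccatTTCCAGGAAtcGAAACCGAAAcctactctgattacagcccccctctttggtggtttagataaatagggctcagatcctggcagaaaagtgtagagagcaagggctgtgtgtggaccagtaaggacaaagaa
Igtp, chr11:58199306-58199605, plus strand: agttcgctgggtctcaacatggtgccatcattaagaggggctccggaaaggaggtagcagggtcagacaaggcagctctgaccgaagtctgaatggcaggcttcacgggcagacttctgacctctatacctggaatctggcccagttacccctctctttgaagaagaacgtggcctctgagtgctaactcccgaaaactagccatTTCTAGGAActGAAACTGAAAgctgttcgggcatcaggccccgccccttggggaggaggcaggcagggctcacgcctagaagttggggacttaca
Gm12250, chr11:58183593-58183892, plus strand: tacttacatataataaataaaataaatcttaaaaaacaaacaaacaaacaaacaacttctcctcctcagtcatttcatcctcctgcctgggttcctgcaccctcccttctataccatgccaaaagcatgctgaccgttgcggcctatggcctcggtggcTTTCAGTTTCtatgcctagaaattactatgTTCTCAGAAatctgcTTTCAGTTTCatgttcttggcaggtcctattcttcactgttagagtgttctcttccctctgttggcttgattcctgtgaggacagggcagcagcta
Ifit1, chr19:34640639-34640938, plus strand: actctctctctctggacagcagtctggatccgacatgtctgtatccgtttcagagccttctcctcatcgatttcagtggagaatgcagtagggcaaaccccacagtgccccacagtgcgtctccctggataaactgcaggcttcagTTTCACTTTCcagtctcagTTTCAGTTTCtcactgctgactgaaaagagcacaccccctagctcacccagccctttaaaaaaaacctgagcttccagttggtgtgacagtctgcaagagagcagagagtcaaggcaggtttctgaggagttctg
The windows of Tgtp2 and Igtp each held 1 match of each motif side by side, that of Gm12250 held 2 response elements and 1 gamma-activated site, and that of Ifit1 held 2 response elements and 0 gamma-activated sites. Over all 32851 windows in the table, 3.44% held the response element and 8.30% the gamma-activated site. The 4 windows shown were chosen for their matches, so they cannot be compared with these shares. A match describes these letters and is not evidence of binding in these tumors. Only 30 of the 42 type I genes had a window, too few to give a share over the list.

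**Figure D3:**
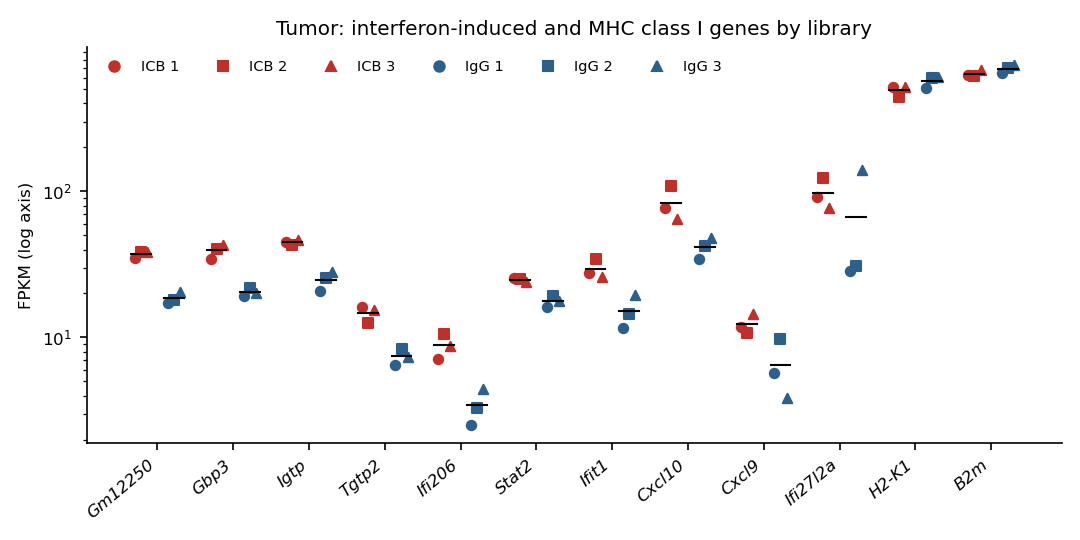
FPKM on a log axis of 12 genes in the 3 ICB tumors (red) and the 3 IgG tumors (blue), with group means as black bars. Groups are apart from Gm12250 to Cxcl9, while IgG replicate 3 alone is high among the IgG tumors for Ifi27l2a, and H2-K1 and B2m overlap; Ifi27l2a, H2-K1 and B2m were chosen after their values were seen.

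The genes of MHC class I presentation had no common direction. Of 24 tested genes 16 were higher and 8 lower, 4 were apart upward, and the median was 0.09.
Psmb8, a subunit of the immunoproteasome, which cuts peptides for presentation, had 76.3, 77.4 and 82.0 FPKM in the ICB tumors, against 60.9, 70.3 and 61.9 FPKM in the IgG tumors. H2-T24, a nonclassical class I gene, had 4.67, 6.52 and 6.31 FPKM in the ICB tumors, against 2.98, 3.37 and 4.54 FPKM in the IgG tumors. The classical heavy chain gene H2-K1, chosen after its values were seen, had 519, 442 and 522 FPKM in the ICB tumors, against 511, 600 and 609 FPKM in the IgG tumors (-0.21 ± 0.12 SE), and its ranges overlapped. Of the 8 tested genes of MHC class II, 5 were higher and 0 were apart in either direction. Its chain H2-Ab1 had 28.6, 17.1 and 53.3 FPKM in the ICB tumors, against 19.03, 11.9 and 26.5 FPKM in the IgG tumors.

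Genes with which lymphocytes kill were lower in the ICB tumors. Of the 15 tested cytotoxic effector genes 13 were lower and 2 higher, 2 had every ICB library below every IgG library, and the median was -0.61, against 7.49% and -0.01 over all tested genes. Gzmc, a granzyme of the cluster on chromosome 14, had 61.1, 16.8 and 23.3 FPKM in the ICB tumors, against 74.3, 148 and 91.7 FPKM in the IgG tumors (-1.76 ± 0.47 SE). Its neighbor Gzmf had 60.7, 15.3 and 18.1 FPKM in the ICB tumors, against 95.3, 172 and 51.4 FPKM in the IgG tumors, and the genes of this cluster resemble each other, so their reads may be shared. Prf1, which encodes the pore-forming perforin, had 16.9, 4.76 and 8.54 FPKM in the ICB tumors, against 21.7, 44.5 and 13.5 FPKM in the IgG tumors. In each of these genes ICB replicate 1 lay close to or among the IgG tumors, while ICB replicates 2 and 3 were low.

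Gzma, which lies on chromosome 13 away from that cluster, had 5.10, 3.45 and 3.52 FPKM in the ICB tumors, against 5.59, 6.90 and 7.38 FPKM in the IgG tumors (-0.61 ± 0.16 SE), and the groups were apart. Gzmb had 26.3, 8.86 and 14.1 FPKM in the ICB tumors, against 34.3, 54.2 and 22.1 FPKM in the IgG tumors. The median of the list was -0.53 without ICB replicate 2, -0.77 without IgG replicate 3 and -0.77 without both, and was negative with each single library left out in turn. Of the 9 tested genes of natural killer and innate lymphoid cells, which share Gzma and Prf1 with the cytotoxic list, 7 were lower. Against that direction Klra2, of the Ly49 receptor family, had 3.77, 4.01 and 4.91 FPKM in the ICB tumors, against 2.33, 1.85 and 2.38 FPKM in the IgG tumors (0.71 ± 0.13 SE).

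Markers of T cells were near the limit of these libraries. Only 9 of 23 listed genes passed the filter, 7 of them higher, with a median of 0.10. Without IgG replicate 3, 4 of the 9 were higher and the median was -0.024. Cd3e, a chain of the T cell receptor complex, had 0.335, 0.172 and 0.456 FPKM in the ICB tumors, against 0.148, 0.198 and 0.248 FPKM in the IgG tumors. Cd8a had 0.784, 0.431 and 1.18 FPKM in the ICB tumors, against 0.646, 0.785 and 0.363 FPKM in the IgG tumors, and the ranges overlapped for both. The antibody targets were also low: Pdcd1, which encodes PD1, had 1.01, 0.756 and 1.39 FPKM in the ICB tumors, against 1.14, 1.11 and 0.201 FPKM in the IgG tumors. Ctla4 had 0.375, 0.197 and 0.216 FPKM in the ICB tumors, against 0.491, 0.458 and 0.145 FPKM in the IgG tumors. Foxp3, the factor of regulatory T cells, lay between 0.159 and 0.261 FPKM in all 6. Ccl5, a chemokine of activated T cells and one of the 2 cytotoxic-list genes that were higher, had 8.94, 8.86 and 9.25 FPKM in the ICB tumors, against 3.17, 2.58 and 10.4 FPKM in the IgG tumors, with IgG replicate 3 above every ICB library. The cytokine gene Il15, which sustains natural killer and memory T cells, had 1.44, 1.22 and 1.62 FPKM in the ICB tumors, against 2.40, 2.01 and 2.66 FPKM in the IgG tumors (-0.47 ± 0.12 SE).

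Genes of circulating monocytes were higher in the ICB tumors by their median difference, while macrophage markers followed IgG replicate 3. Of 15 tested monocyte genes 11 were higher and 4 lower, 4 were apart upward and the median was 0.51. By summed FPKM, however, the groups overlapped. The 18 monocyte genes in the table summed to 398, 412 and 294 in the ICB tumors, against 440, 321 and 368 in the IgG tumors. Ly6c2, the Ly6C antigen of inflammatory monocytes, which has a close copy in Ly6c1, had 5.97, 13.7 and 4.74 FPKM in the ICB tumors, against 2.35, 1.97 and 1.63 FPKM in the IgG tumors (1.498 ± 0.33 SE). Ccr2, the receptor that brings monocytes out of the marrow, had 5.75, 5.57 and 4.09 FPKM in the ICB tumors, against 2.88, 2.19 and 3.68 FPKM in the IgG tumors (0.65 ± 0.18 SE). Ms4a4c had 16.0, 22.1 and 16.3 FPKM in the ICB tumors, against 7.51, 5.89 and 10.5 FPKM in the IgG tumors (1.11 ± 0.21 SE). ICB replicate 2 was the highest library for Ly6c2 and Ms4a4c, and the median of the list was 0.37 without it, 0.36 without IgG replicate 3 and 0.25 without both.

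Of the 23 tested macrophage markers 12 were higher and 11 lower (median 0.04). Adgre1, which encodes F4/80, had 8.30, 11.9 and 16.5 FPKM in the ICB tumors, against 4.90, 7.60 and 21.6 FPKM in the IgG tumors. C1qa, a chain of complement made by tissue macrophages that was chosen after its values were seen, had 93.7, 95.7 and 144 FPKM in the ICB tumors, against 73.3, 94.0 and 249 FPKM in the IgG tumors. For both genes IgG replicate 3 was the highest library and IgG replicate 1 the lowest. Without IgG replicate 3 the median was 0.39, with 19 of 23 genes higher. Without IgG replicate 1 it was -0.20, with 6 of 23 higher, and without IgG replicate 2 it was -0.12, with 9 of 23 higher. The direction of the list thus depended on which IgG library was left out. Fcgr1, the high-affinity Fc receptor that interferon-gamma induces, had 16.8, 21.5 and 17.6 FPKM in the ICB tumors, against 10.03, 7.83 and 15.5 FPKM in the IgG tumors (0.74 ± 0.23 SE).

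Lists of phagocyte activation states went both ways. All 15 tested genes of macrophages activated by interferon-gamma and lipopolysaccharide were higher (median 0.32). The 3 that were apart were Cxcl9 and Cxcl10, which belong to the interferon list too, and Acod1. Acod1, which makes itaconate, had 3.81, 2.42 and 3.04 FPKM in the ICB tumors, against 1.76, 2.41 and 0.870 FPKM in the IgG tumors. Its ICB replicate 2 and IgG replicate 2 were nearly equal. Genes of alternatively activated macrophages were mostly higher too, 8 of 10 tested, with 1 apart upward and a median of 0.36. The summed FPKM of that list was 138, 178 and 147 in the ICB tumors, against 147, 79.6 and 115 in the IgG tumors. Of the 14 tested genes of lipid-associated macrophages 13 were lower (median -0.25) and 0 were apart. Fabp5, a fatty acid carrier, had 4.91, 3.63 and 4.12 FPKM in the ICB tumors, against 7.19, 9.32 and 4.78 FPKM in the IgG tumors. Markers of other antigen-presenting and antibody-making cells were sparse. Of the 7 tested genes of type 1 dendritic cells 3 were higher and 4 lower, of the 5 tested B cell genes 1 was higher and 4 lower, and all had overlapping groups. Itgax, the integrin CD11c of dendritic cells and macrophages, had 3.24, 2.13 and 5.32 FPKM in the ICB tumors, against 1.43, 1.84 and 2.28 FPKM in the IgG tumors. Neutrophil genes were few and mixed, with 4 of 9 higher and a median of -0.11. With 1 library left out, 2 to 7 were higher and the median was -0.55 to 0.21. Their marker Csf3r lay between 1.63 and 2.41 FPKM in all 6 libraries. The marker S100a9 varied within both groups, with 5.46, 21.7 and 5.13 FPKM in the ICB tumors, against 16.3, 19.5 and 1.34 FPKM in the IgG tumors.

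The tumor-cell compartment was checked first against its label. Krt8, Krt18 and Epcam, the defining genes of epithelial carcinoma, were at most 0.823 FPKM in any tumor library, only 2 of the 20 epithelial genes in the table passed the filter, and Epcam was at 0 in ICB replicate 3. Vim, a filament gene of mesenchymal cells that was chosen after its values were seen, lay between 283 and 420 FPKM. The defining epithelial transcripts of a colon carcinoma were thus near 0 in both groups.

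Stress and growth genes were slightly higher in the ICB tumors. Of the 24 tested genes of the integrated stress response, the program that ATF4 drives when translation is curbed, 23 were higher, 11 were apart upward and the median was 0.25. Trib3, an ATF4 target that feeds back on it, had 36.5, 41.0 and 39.2 FPKM in the ICB tumors, against 28.4, 27.3 and 16.6 FPKM in the IgG tumors (0.70 ± 0.20 SE). Atf4 itself had 106, 115 and 101 FPKM in the ICB tumors, against 83.2, 77.0 and 90.0 FPKM in the IgG tumors (0.36 ± 0.11 SE). Aldh1l2, a mitochondrial folate enzyme, had 8.48, 8.60 and 12.5 FPKM in the ICB tumors, against 7.42, 6.06 and 5.90 FPKM in the IgG tumors (0.53 ± 0.17 SE). IgG replicate 3 was the lowest library of the list as a whole, and without it the median was 0.15, with 17 of 24 higher.

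In the related unfolded protein response, which relieves the endoplasmic reticulum, 14 of 21 tested genes were higher and 5 were apart upward (median 0.05). Hspa5, its main chaperone, had 205, 208 and 205 FPKM in the ICB tumors, against 175, 176 and 163 FPKM in the IgG tumors. Of the 18 tested p53 target genes 9 were higher and 9 lower.

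All 23 Myc target genes were higher (median 0.20, 4 apart), but the median was 0.07 without ICB replicate 2, with 17 of 23 higher, 0.13 without IgG replicate 3, and 0.01 without both. Npm1, a nucleolar chaperone, had 336, 431 and 353 FPKM in the ICB tumors, against 287, 310 and 290 FPKM in the IgG tumors. Of 32 cytosolic ribosomal protein genes 31 were higher and 13 were apart (median 0.20, 0.27 without IgG replicate 3 and 0.12 without IgG replicate 1). Rpl4 had 505, 545 and 536 FPKM in the ICB tumors, against 421, 392 and 457 FPKM in the IgG tumors (0.32 ± 0.10 SE). Cell cycle genes were higher in 26 of 30 cases with 6 apart (median 0.17, 0.07 without ICB replicate 2 and 0.09 without IgG replicate 1), and Mki67, a marker of cycling cells, had 41.2, 42.9 and 44.4 FPKM in the ICB tumors, against 32.8, 33.8 and 38.5 FPKM in the IgG tumors. Hypoxia and glycolysis genes were higher in 25 of 27 cases but 0 were apart, and the median of 0.18 was 0.005 without IgG replicate 3.

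Genes of fatty acid oxidation went the other way. Of 17 tested genes 15 were lower, 6 were apart downward, against 7.49% of all tested genes, and the median was -0.18, or -0.14 without IgG replicate 3. Cpt1a, which admits fatty acids to mitochondria, had 8.99, 10.9 and 9.49 FPKM in the ICB tumors, against 16.6, 12.2 and 12.3 FPKM in the IgG tumors (-0.44 ± 0.14 SE). Acads, an acyl-CoA dehydrogenase, had 21.6, 21.6 and 20.6 FPKM in the ICB tumors, against 27.5, 25.6 and 25.1 FPKM in the IgG tumors (-0.28 ± 0.09 SE). The differences were small and every library of the list mean kept to its group's side, at 3.57, 3.52 and 3.53 in the ICB tumors, against 3.69, 3.75 and 3.73 in the IgG tumors on the log2(FPKM + 1) scale. Nqo1, a quinone reductase controlled by NRF2, had 12.5, 6.33 and 6.33 FPKM in the ICB tumors, against 17.9, 19.2 and 14.3 FPKM in the IgG tumors (-1.004 ± 0.25 SE), and 13 of the 16 tested NRF2 target genes were lower. Nqo1 was the 1 gene of these 16 with groups apart, and the median of the list was -0.24, or -0.48 without IgG replicate 3. Leaving out IgG replicate 1 gave -0.07, leaving out IgG replicate 2 gave -0.11 and leaving out ICB replicate 3 gave -0.13. IgG replicate 3 had the lowest mean of this list among all 6 libraries.

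**Figure D4:**
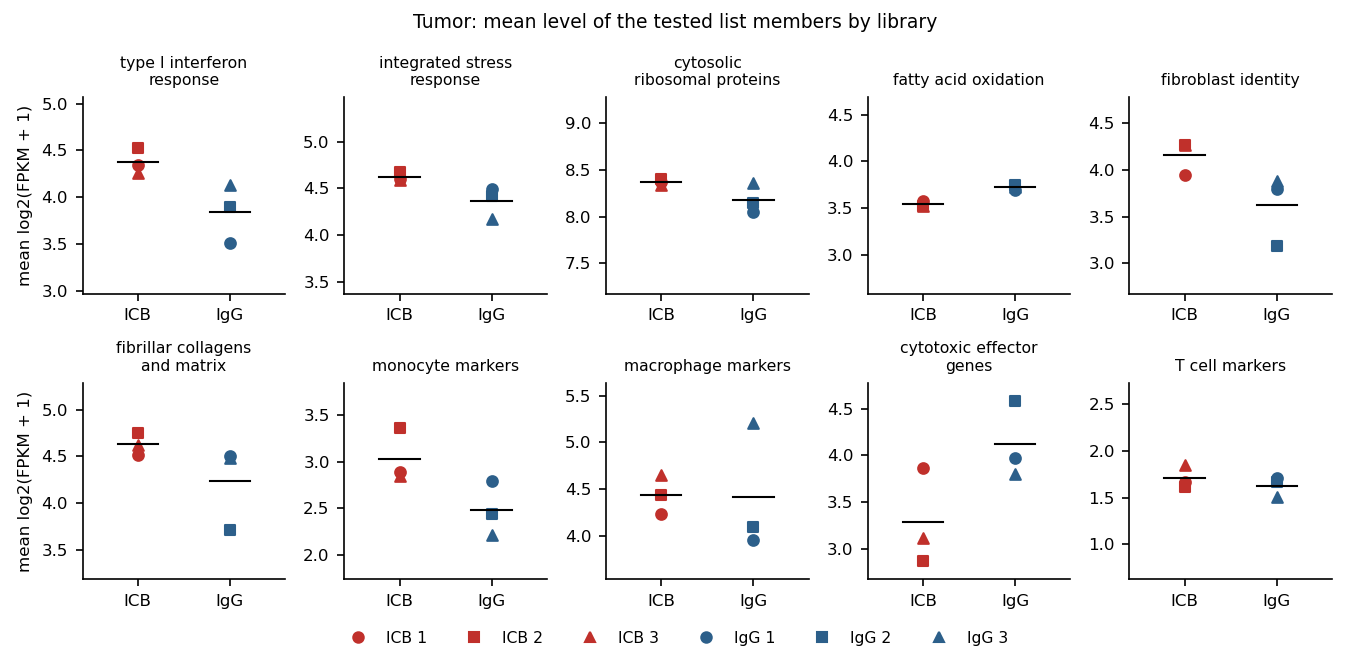
Mean log2(FPKM + 1) of the tested genes of 10 lists in each tumor library, ICB in red left of IgG in blue, with the group means as black bars and the same height of axis in every panel. The groups do not overlap for the interferon, stress, fatty acid oxidation, fibroblast, collagen and monocyte lists, while IgG replicate 3 is highest for macrophage markers and ICB replicate 1 lies among the IgG tumors for cytotoxic genes.

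Fibroblast and matrix genes were higher in the ICB tumors by their median difference, with wide spread. By summed FPKM, however, IgG replicate 3 held the most of both lists. The fibroblast genes summed to 888, 828 and 799 in the ICB tumors, against 654, 520 and 1040 in the IgG tumors. The collagen and matrix genes summed to 1760, 1322 and 1436 in the ICB tumors, against 1287, 882 and 2356 in the IgG tumors. Of 18 tested fibroblast genes 14 were higher, 3 were apart upward and 2 downward, and the median was 0.52, or 0.86 without IgG replicate 3 and 0.21 without IgG replicate 2. Fbln2, the matrix glycoprotein fibulin-2, had 59.2, 63.9 and 73.6 FPKM in the ICB tumors, against 30.8, 14.2 and 26.5 FPKM in the IgG tumors (1.48 ± 0.27 SE, limma adjusted p = 0.692). Cd248, endosialin of activated stroma, had 9.61, 12.4 and 10.8 FPKM in the ICB tumors, against 7.33, 4.99 and 5.04 FPKM in the IgG tumors. Gsn, the actin-severing gelsolin, had 43.4, 29.4 and 31.1 FPKM in the ICB tumors, against 46.9, 46.4 and 55.8 FPKM in the IgG tumors (-0.52 ± 0.17 SE).

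Of 22 tested collagen and matrix genes 17 were higher but only 2 were apart (median 0.40), and without IgG replicate 2 the median was 0.08. Col1a2, a chain of type I collagen, had 18.96, 46.3 and 36.2 FPKM in the ICB tumors, against 27.3, 5.32 and 12.3 FPKM in the IgG tumors, so ICB replicate 1 lay among the IgG tumors. Tnc, the wound matrix protein tenascin-C, had 16.9, 29.4 and 23.8 FPKM in the ICB tumors, against 14.9, 12.4 and 8.24 FPKM in the IgG tumors (0.92 ± 0.26 SE). The libraries with the highest Col1a2 and Tnc, ICB replicates 2 and 3, also carried fat transcripts, and the part of these in the matrix result was not tested. Has2, which makes hyaluronan, had 12.4, 6.13 and 13.2 FPKM in the ICB tumors, against 2.68, 1.07 and 4.44 FPKM in the IgG tumors (1.68 ± 0.40 SE), and here ICB replicate 1 was as high as ICB replicate 3. Timp1, an inhibitor of matrix proteases, had 79.7, 86.4 and 74.3 FPKM in the ICB tumors, against 55.3, 61.2 and 60.5 FPKM in the IgG tumors (0.43 ± 0.10 SE). Its relative Timp2 had 34.8, 45.6 and 29.6 FPKM in the ICB tumors, against 51.7, 58.9 and 49.4 FPKM in the IgG tumors (-0.55 ± 0.17 SE). Blood endothelial genes were lower in 9 of 15 cases (median -0.08), and Pecam1, their common marker, had 3.87, 5.47 and 5.14 FPKM in the ICB tumors, against 6.18, 5.11 and 4.62 FPKM in the IgG tumors.

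Muscle and fat transcripts were high in some of the ICB tumors, and their origin was not tested. Skeletal muscle transcripts were highest in ICB replicate 2: the summed FPKM of the 26 muscle genes in the table was 32.3, 481 and 16.7 in the ICB tumors, against 25.1, 17.7 and 19.8 in the IgG tumors. Acta1, the actin of skeletal muscle fibers, had 8.30, 180 and 1.21 FPKM in the ICB tumors, against 4.12, 1.35 and 1.40 FPKM in the IgG tumors. Myh4, the myosin of fast fibers, had 0.561, 35.7 and 0.356 FPKM in the ICB tumors, against 0.365, 0.383 and 0.267 FPKM in the IgG tumors. In ICB replicate 2, 38 genes with at least 1 FPKM were at least 4 times as high as in any other tumor library, with 0.1 FPKM added to both, and 36 of these were at least 10 times as high in the mean of the IgG skeletal muscle libraries as in the mean of the other tumors, against 3.13% of all 11338 genes with at least 1 FPKM in that library. Over the 21 muscle genes with at least 100 FPKM in muscle, the median level in ICB replicate 2 was 0.342% of that in muscle, and 0.00684% to 0.0238% in the other tumors. Of these 21 genes, Myh2, the myosin of fast oxidative fibers, which was chosen after its values were seen, was higher in ICB replicate 1 than in ICB replicate 2, at 0.172%, 0.128% and 0.00404% of its muscle level in the ICB tumors, against 0.0862%, 0.00247% and 0.00333% in the IgG tumors. The muscle list had a median difference of 1.11 with ICB replicate 2 and -0.002 without it, while without it the type I interferon list had a median of 0.41 and the interferon-gamma list one of 0.50.

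Fat transcripts were high in ICB replicates 2 and 3 alike, so that 0 genes of the adipocyte list stood apart in ICB replicate 2 alone. Adipoq, the fat hormone adiponectin, had 0.211, 3.15 and 3.99 FPKM in the ICB tumors, against 0.0436, 0 and 0 FPKM in the IgG tumors. Cfd, the adipsin of fat cells, had 0.788, 42.5 and 39.5 FPKM in the ICB tumors, against 1.11, 0.0937 and 0.618 FPKM in the IgG tumors (3.24 ± 1.18 SE). The summed FPKM of the 22 adipocyte genes was 68.6, 152 and 151 in the ICB tumors, against 82.1, 69.4 and 42.1 in the IgG tumors. Cxcl14, a chemokine of skin and stroma with the largest upward difference among the genes whose groups were apart, followed the same libraries, with 3.08, 19.4 and 13.9 FPKM in the ICB tumors, against 2.38, 1.25 and 0.512 FPKM in the IgG tumors (2.25 ± 0.60 SE). The complement gene C4b had 5.95, 17.3 and 12.8 FPKM in the ICB tumors, against 6.58, 3.94 and 2.49 FPKM in the IgG tumors. Krt5 and Krt14, the keratins of basal epidermis, which were chosen after their values were seen, were at most 0.430 FPKM in any tumor library. Some other skin and hair follicle genes were expressed, such as Krt17 at 5.36 FPKM in IgG replicate 1. The 14 listed genes summed to 12.5, 13.3 and 11.4 FPKM in the ICB tumors, against 22.8, 16.1 and 4.62 in the IgG tumors.

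**Figure D5:**
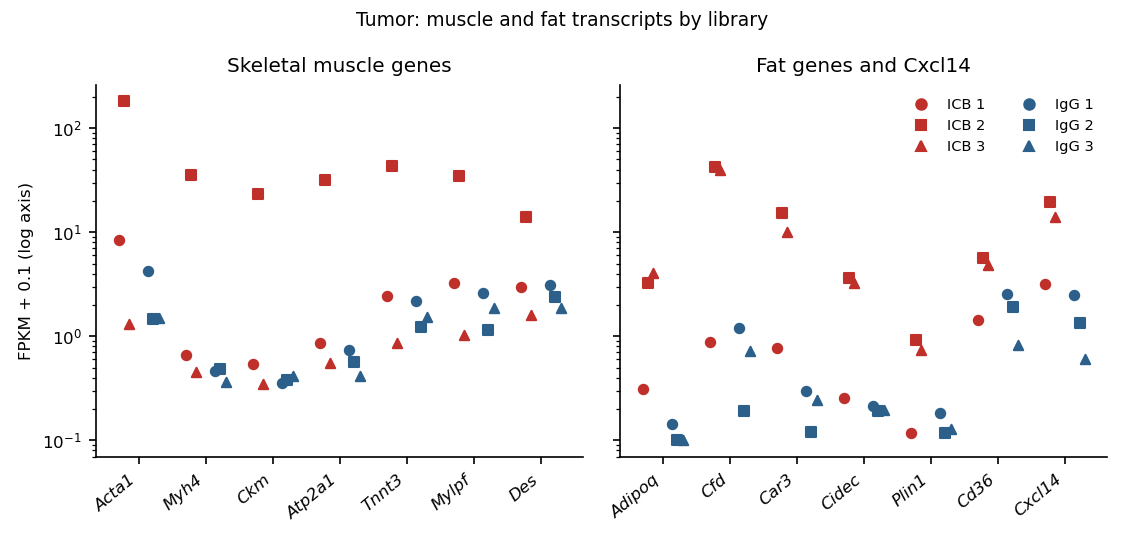
FPKM plus 0.1 on a log axis of 7 skeletal muscle genes (left) and of 6 fat genes with Cxcl14 (right) in the 3 ICB tumors (red) and the 3 IgG tumors (blue). ICB replicate 2 is far above the other libraries for these muscle genes, and ICB replicates 2 and 3 are both high for the fat genes; Car3, Cidec and Plin1 were chosen after their values were seen.

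Other lower genes that met the rule for naming had mixed functions. F3, tissue factor, which starts clotting, had 14.2, 8.02 and 9.25 FPKM in the ICB tumors, against 21.1, 18.3 and 22.2 FPKM in the IgG tumors (-0.94 ± 0.20 SE). Mfge8, a bridge between phagocytes and dying cells, had 13.01, 10.7 and 7.51 FPKM in the ICB tumors, against 17.8, 19.5 and 23.6 FPKM in the IgG tumors (-0.92 ± 0.20 SE). Mylip, a ubiquitin ligase that degrades the LDL receptor, had 5.74, 4.56 and 5.53 FPKM in the ICB tumors, against 7.90, 8.50 and 10.1 FPKM in the IgG tumors. Polm, a DNA polymerase of end joining on the DNA repair list, had 4.15, 3.63 and 3.18 FPKM in the ICB tumors, against 5.90, 6.68 and 5.58 FPKM in the IgG tumors. In all 4 genes the lowest IgG library was above the highest ICB library. Firre, a long RNA of the X chromosome, had 1.45, 1.17 and 1.40 FPKM in the ICB tumors, against 2.57, 2.79 and 2.20 FPKM in the IgG tumors. Its groups were apart too. Mir7-1, a microRNA precursor inside Hnrnpk, had the lowest unadjusted p among the lower genes with a full name but rested on 5, 3 and 4 recovered reads in the ICB tumors, against 11, 11 and 13 in the IgG tumors, and such libraries do not measure the mature microRNA.

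Whether a tumor difference departed from the differences of kidney, lung, liver, muscle and heart was tested over all 36 libraries. Of 16123 genes 38 (0.236%) had a tumor difference that departed from the mean of the 5 organ differences at a limma adjusted p below 0.05, 21 upward and 17 downward. Of the 38 genes, 22 had a mean below 1 FPKM in every organ group, as had 787 of all genes tested. Among genes with at least 1 FPKM in every tissue, 0 of 8485 passed with limma and 511 had an unadjusted p below 0.05. The number that passed depended on the libraries: it was 114 higher and 173 lower without IgG replicate 3, 42 higher and 48 lower without ICB replicate 1, and 44 higher and 36 lower without IgG replicate 1. It was 12 higher and 11 lower without IgG replicate 2, and 16 higher and 8 lower without ICB replicate 3. For the genes below 1 FPKM in every organ, the organs give no difference to depart from and lower the standard error, so their values are a description of the tumors and no test beyond them. Krt16, a keratin of wounded epidermis, had 1.17, 1.92 and 1.49 FPKM in the ICB tumors, against 0.827, 0.239 and 0.182 FPKM in the IgG tumors, and its limma adjusted p within the tumors was 0.692. Has2, described above, was at most 0.205 FPKM in an organ group mean and had a limma adjusted p of 0.692 within the tumors.

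Gm44, a predicted gene of the X chromosome, had 24, 29 and 22 recovered reads in the ICB tumors, against 70, 91 and 118 in the IgG tumors, and 0 reads in any of the 30 organ libraries. Its difference within the tumors was -1.05 ± 0.13 SE (limma adjusted p = 0.385). Peg10, an imprinted gene derived from a retrotransposon, had 8.58, 10.5 and 7.40 FPKM in the ICB tumors, against 2.70, 1.97 and 6.57 FPKM in the IgG tumors. Dppa4, a chromatin gene of pluripotent cells, had 5.01, 4.75 and 1.56 FPKM in the ICB tumors, against 5.91, 8.49 and 9.82 FPKM in the IgG tumors. The groups were apart for these genes, which were low in every organ.

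Among genes expressed in an organ, Fbln2, at up to 27.3 FPKM in an organ group mean, had a departure of 1.32 ± 0.21 SE (limma adjusted p = 0.00214, against 0.692 within the tumors), and Mfge8, at up to 37.5 FPKM, one of -0.87 ± 0.17 SE (limma adjusted p = 0.0129). Slc47a1, an exporter of organic cations, had 2.19, 1.97 and 0.549 FPKM in the ICB tumors, against 6.03, 5.82 and 4.32 FPKM in the IgG tumors (tumor minus organs -1.45 ± 0.25 SE, limma adjusted p = 0.00462). For these genes too the organ fit shares 1 spread over all tissues, which can lower the standard error. That of the Fbln2 tumor difference was 0.270 within the tumors and 0.195 in 1 fit of all 36 libraries. Among the leading interferon genes none passed: Gm12250, Gbp3, Igtp and Tgtp2 had limma adjusted p between 0.788 and 0.881 for the departure. Of the type I list, Ifit1bl1 passed, with 3.79, 5.66 and 2.48 FPKM in the ICB tumors, against 0.873, 1.57 and 1.28 FPKM in the IgG tumors (tumor minus organs 1.13 ± 0.20 SE, limma adjusted p = 0.00634).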

How the data were processed

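RNA sequencing libraries of 6 MC38 tumors were analysed, 3 from ICB mice and 3 from IgG mice, out of 36 libraries of 6 tissues. The deposited values are FPKM per gene, whose scale implies a normalization factor of 1.47 to 1.548 per tumor library. HISAT2 2.1.0, edgeR and the mm10 build are named, per the submitters' processing notes, without their roles or parameters. Every row of FPKM stepped in whole reads (tolerance 0.001 reads, 18781 of 18781 rows), which gave 20893280 to 25512980 recovered reads per tumor library. The share of reads in 15 rows without a name was 0.25% to 0.338%; these rows and 3 symbols shared by 2 rows were left out.

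Genes with at least 1 FPKM in at least 3 of the 6 tumor libraries were fitted as log2(FPKM + 1) with limma 3.58.1 in R 4.3.3, with a mean-variance trend and Benjamini-Hochberg adjustment over all tested genes at 0.05. This pseudocount understates changes of low genes. The departure of the tumor difference from the mean of 5 organ differences was fitted over all 36 libraries. The fit within the tumors was tested on simulated data that gave all genes a common spread and set no library apart, unlike these tumors. The organ fit was not tested in this way. Members and gene lists were chosen with earlier results of these data known. Genes named are the smallest p-values and largest separated differences in each direction, up to 4 members per list, fixed markers, genes apart in ICB replicate 2 and those of the organ fit; exceptions are stated. Motif matches were counted in RefSeq promoter windows. Alternatives changed the pseudocount, filter, scaling, model and libraries.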

Additional observations from a re-analysis of the deposited data

Results flagged for a closer look

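The ICB minus IgG difference of 38 genes departed in tumors from the mean of the same difference in kidney, lung, liver, muscle and heart. Krt16 had a departure of 0.88 on the log2(FPKM + 1) scale, with recovered reads of 63, 111 and 74 in the ICB tumors, against 43, 13 and 11 in the IgG tumors. Car6, a secreted carbonic anhydrase, had a departure of 0.96, and Has2 one of 1.62. Of the 38 genes, 22, these 3 among them, had every organ mean below 1 FPKM. For those the organs give no difference to compare with and lower the standard error, so the departure restates the tumor difference. Within the tumors Kctd14 was below the filter and not tested, and none of the others of the 38 passed. Fbln2, Mfge8 and Slc47a1 had a mean above 1 FPKM in an organ, and the shared spread of all 36 libraries enters their standard errors too.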

How the results depend on the processing

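The counts of genes called higher and lower between ICB and IgG tumors were 1 and 1 with array weights, 39 and 30 in 1 fit of all 36 libraries, and 0 to 3 for each direction with 1 library left out; the other settings gave 0. Without IgG replicate 3 the calls were Upk1b, Ccl5, Ido2, Calcb, Lsp1 and Gm12250, of which all but Ccl5 and Gm12250 lie outside the rule for naming; without ICB replicate 1 the call was Cfd. List medians under the alternatives that moved them most, and their ranges with 1 library left out, were as follows. Without ICB replicate 2 and IgG replicate 3 together, a choice made after seeing the data, the integrated stress response had 0.12, MHC class I 0.19 and fatty acid oxidation -0.20. With 1 library left out, the integrated stress response had 0.15 to 0.32 and MHC class I 0.0055 to 0.13. Fatty acid oxidation had -0.23 with limma-voom and -0.19 to -0.14 with 1 library left out. Fibroblast genes had 0.83 with array weights and 0.21 to 0.86 with 1 library left out, and collagens had 0.78 with array weights. T cell markers had -0.013 with the filter in all 6 libraries and -0.024 to 0.18 with 1 library left out. The cause of these shifts was not tested. Departures from the organs numbered 10 higher and 8 lower with a pseudocount of 0.1, 52 lower on the TPM scale, 0 and 0 among genes of at least 1 FPKM in every tissue, and 12 to 114 higher and 8 to 173 lower with 1 tumor library left out; the extremes came without IgG replicates 2 and 3 for higher genes and without ICB replicate 3 and IgG replicate 3 for lower genes. With the title number as a replicate block, the departures were 23 higher and 25 lower. No paired analysis was possible because ICB and IgG tumors share no title number. Genes apart in ICB replicate 2 numbered 80 at a ratio of 2 and 19 at a ratio of 8. Genes near 1 FPKM rest on few reads, and each group has 3 libraries.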

Other observations

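Targets of Wnt signaling, which drives most colon carcinomas, were mostly too low to test: 6 of 16 genes passed the filter, all 6 were higher in the ICB tumors, 5 with every ICB library above every IgG library (median 0.47). Ccnd1, cyclin D1, had 33.2, 50.9 and 40.1 FPKM in the ICB tumors, against 25.2, 32.9 and 23.7 FPKM in the IgG tumors. Ephb2, a receptor kinase of crypt cells, had 1.46, 1.91 and 1.37 FPKM in the ICB tumors, against 0.578, 0.478 and 1.08 FPKM in the IgG tumors. The range of the median with 1 library left out was 0.35 to 0.56. It was wider, 0.03 to 0.49, when the pseudocount, filter, scaling or model was changed, so the size of this difference depended on the processing.

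Red cell transcripts varied within both groups. Hbb-bs, a beta globin, had 22.3, 61.0 and 34.2 FPKM in the ICB tumors, against 76.6, 99.4 and 17.1 FPKM in the IgG tumors, so IgG replicate 3 held the least. The alarmin gene Il33 had 31.5, 29.6 and 46.4 FPKM in the ICB tumors, against 12.5, 5.21 and 22.8 FPKM in the IgG tumors, and the groups were apart. Ddx3y, a helicase gene of the Y chromosome that was chosen after its values were seen, lay between 0.771 and 1.25 FPKM in the tumors, against 5.14 to 29.0 FPKM in the 30 organ libraries.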
